A study of Mus musculus with 3 samples.

Results

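The 5 genes Gnat2, Gnb3, Gngt2, Cnga3 and Cngb3, which encode the cone form of the G protein transducin and the cone cyclic nucleotide-gated channel, were followed across the deposited clusters and libraries of a single-cell RNA sequencing study of mouse retina. They were chosen by name for their role in cone phototransduction and not for their values, and all 5 were among the 18545 genes measured. There were 3 groups of mice aged 8 weeks that had been kept in the dark: C57BL/6J wild-type mice (WT), rd10 mice without drug in the chow (rd10-vehicle) and rd10 mice given tamsulosin, metoprolol and bromocriptine in the chow (rd10-TMB). The rd10 mice carry a point mutation in Pde6b, a subunit gene of the rod phosphodiesterase, and lose first rods and then cones. Each group was 1 pooled droplet library, with both sexes in WT and females only in the rd10 groups. Each pool held 4 mice per the labels, whereas the text of the study gives 3 mice for the 2 rd10 pools.

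A single library stood for each group, so no test between groups could be run. Unique molecular identifiers (UMIs, each standing for 1 captured transcript molecule) were summed over the cells of a cluster and library, and a level is given as UMIs per 1000000 UMIs of that sum (CPM). The intervals are 95% intervals for counting error only, so a difference beyond them holds between these libraries and not between the conditions. The chemistry counts 1 tag per molecule, so levels were not scaled by gene length, and capture may still differ between genes. A gene was called higher when its level was at least 25% above, and lower when it was at most 0.8 of, that in the other library, provided both together held at least 100 UMIs of it.

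The libraries held 4478 cells in WT and 5952 in rd10-vehicle, with 4812 in rd10-TMB, with 18882951 to 37002532 UMIs. Cluster 4 held 278, 542 and 412 cells in the same order. Its label as cones was checked against 10 cone markers, all of which were raised in it, and 5 of them were among its top 10 genes by fold. Gnat2, Gngt2 and Cngb3 were also in that top 10. Since the clusters were built from the expressed genes, high levels in Cluster 4 describe the cluster and are not tested. Markers of other cells were also read in Cluster 4. The 12 rod markers, Gngt1 among them, summed to 9807, 9319 and 10004 CPM there, and the 8 Müller glia markers to 323, 743 and 688 CPM. Between pairs of libraries, 7 to 10 cell barcodes were shared.

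In a cone, light-activated opsin makes the alpha subunit of transducin exchange its nucleotide and part from the beta and gamma subunits. The free alpha subunit activates a phosphodiesterase that breaks down cyclic GMP, and the cation channel of the outer segment closes as cyclic GMP falls. Gnat2 encodes the alpha subunit, Gnb3 the beta subunit and Gngt2 the gamma subunit. Cnga3 and Cngb3 encode the channel subunits. Rods use a separate gene for each role, Gnat1, Gnb1, Gngt1, Cnga1 and Cngb1. Gnb3 also serves ON bipolar cells, in which the beta and gamma subunits work with the G protein behind the glutamate receptor Grm6. Human mutations in GNAT2, CNGA3 and CNGB3 are known causes of achromatopsia, the loss of cone vision.

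The positions are those of the GRCm38 (mm10) assembly in the GENCODE annotation. Gnat2 lies at chr3:108092789-108101432 on the plus strand with 9 exons and 354 codons. Gnb3 lies at chr6:124834240-124840275 on the minus strand with 10 exons and 340 codons. Gngt2 lies at chr11:95837216-95845734 on the plus strand with 3 exons and 69 codons, and Abi3 overlaps it on the other strand. Cnga3 lies at chr1:37214434-37263384 on the plus strand with 6 exons and 631 codons. Cngb3 lies at chr4:19280850-19510623 on the plus strand with 18 exons and 694 codons, and Gm11877 overlaps it on the same strand.

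The cone and rod genes of each pair had to be told apart by their tags, so the reference transcripts were compared. The longest run of bases shared exactly by the transcripts of a pair was 23 bases for Gnat2 and Gnat1, 20 for Gnb3 and Gnb1, 13 for Gngt2 and Gngt1, 20 for Cnga3 and Cnga1 and 18 for Cngb3 and Cngb1. The gamma subunits are shown whole because they are short and because the cone and rod forms occurred together in cones, as given further on. They are the coding sequences of the GENCODE transcripts, and the capitals mark the last 4 codons before the stop, where the first codes the cysteine that carries the farnesyl lipid anchoring the subunit to the outer segment membrane.
Gngt2, coding bases 1 to 210: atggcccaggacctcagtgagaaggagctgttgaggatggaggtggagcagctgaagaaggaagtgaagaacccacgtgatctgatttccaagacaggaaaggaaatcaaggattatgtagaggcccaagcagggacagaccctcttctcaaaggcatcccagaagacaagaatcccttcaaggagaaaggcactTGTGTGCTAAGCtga
Gngt1, coding bases 1 to 225: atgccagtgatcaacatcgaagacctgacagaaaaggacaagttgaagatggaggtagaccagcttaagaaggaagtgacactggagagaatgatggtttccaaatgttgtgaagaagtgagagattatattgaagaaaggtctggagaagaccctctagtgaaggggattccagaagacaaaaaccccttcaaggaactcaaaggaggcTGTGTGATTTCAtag
The beta subunits are shown because their balance in rods is the largest difference described here. Over 1023 aligned coding bases, Gnb3 and Gnb1 had 777 bases in common, an identity of 76.0%. The last 120 coding bases, which end with the stop codon, are given with the 25 bases that differ between them in capitals.
Gnb3, coding bases 904 to 1023: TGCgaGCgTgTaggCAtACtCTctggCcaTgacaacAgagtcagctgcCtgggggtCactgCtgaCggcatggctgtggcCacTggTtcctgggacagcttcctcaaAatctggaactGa
Gnb1, coding bases 904 to 1023: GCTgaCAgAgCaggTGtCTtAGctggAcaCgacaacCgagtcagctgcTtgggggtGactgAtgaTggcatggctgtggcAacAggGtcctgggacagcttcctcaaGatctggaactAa

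All 5 genes had their highest level in Cluster 4 in each of the 3 libraries, among the 10 to 13 clusters with at least 50 cells. How far the cones stood above the next cluster differed widely between the genes. For Gnat2 the next cluster was 12.2-fold lower in WT and 7.48-fold lower in rd10-vehicle, and in rd10-TMB 8.89-fold lower. For Gngt2 these folds were 6.39, 3.93 and 4.25, and for Cngb3 they were 3.34, 1.82 and 2.34. For Gnb3 they were only 1.93, 1.43 and 1.17. Cnga3 had 1 UMI in rod-like cells in each library and at most 2 in any of the bipolar clusters, and Müller glia-like cells had 0, 22 and 9.

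Over the 3 libraries, Cluster 4 held 553 of 598 Cnga3 UMIs (92.5%), 86.1% of Gnat2 UMIs, 79.4% of Gngt2 UMIs and 73.6% of Cngb3 UMIs, but 38.1% of Gnb3 UMIs. Clusters 2, 3, 6 and 10, which are rod bipolar-like, ON cone bipolar-like or unnamed clusters with ON bipolar or amacrine transcripts, held 52.7% of Gnb3 UMIs. By library the Cnga3 share was 97.0% in WT, 86.7% in rd10-vehicle, where Müller glia-like cells held 10.4%, and 94.6% in rd10-TMB. In rd10-vehicle it was thus level with Gnat2, also at 86.7%. Most Gnb3 tags, in contrast, were outside the cones. All these shares also follow the number and depth of the cells in each cluster. The rd10-vehicle library held 2492 Müller glia-like cells, against 530 for WT. The Cnga3 level of these rd10-vehicle cells was only 0.99 CPM, against 71.3 CPM in the cones of that library. The larger Müller glia-like share of Cnga3 is thus not a sign of a high level per cell.

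**Figure D1:**
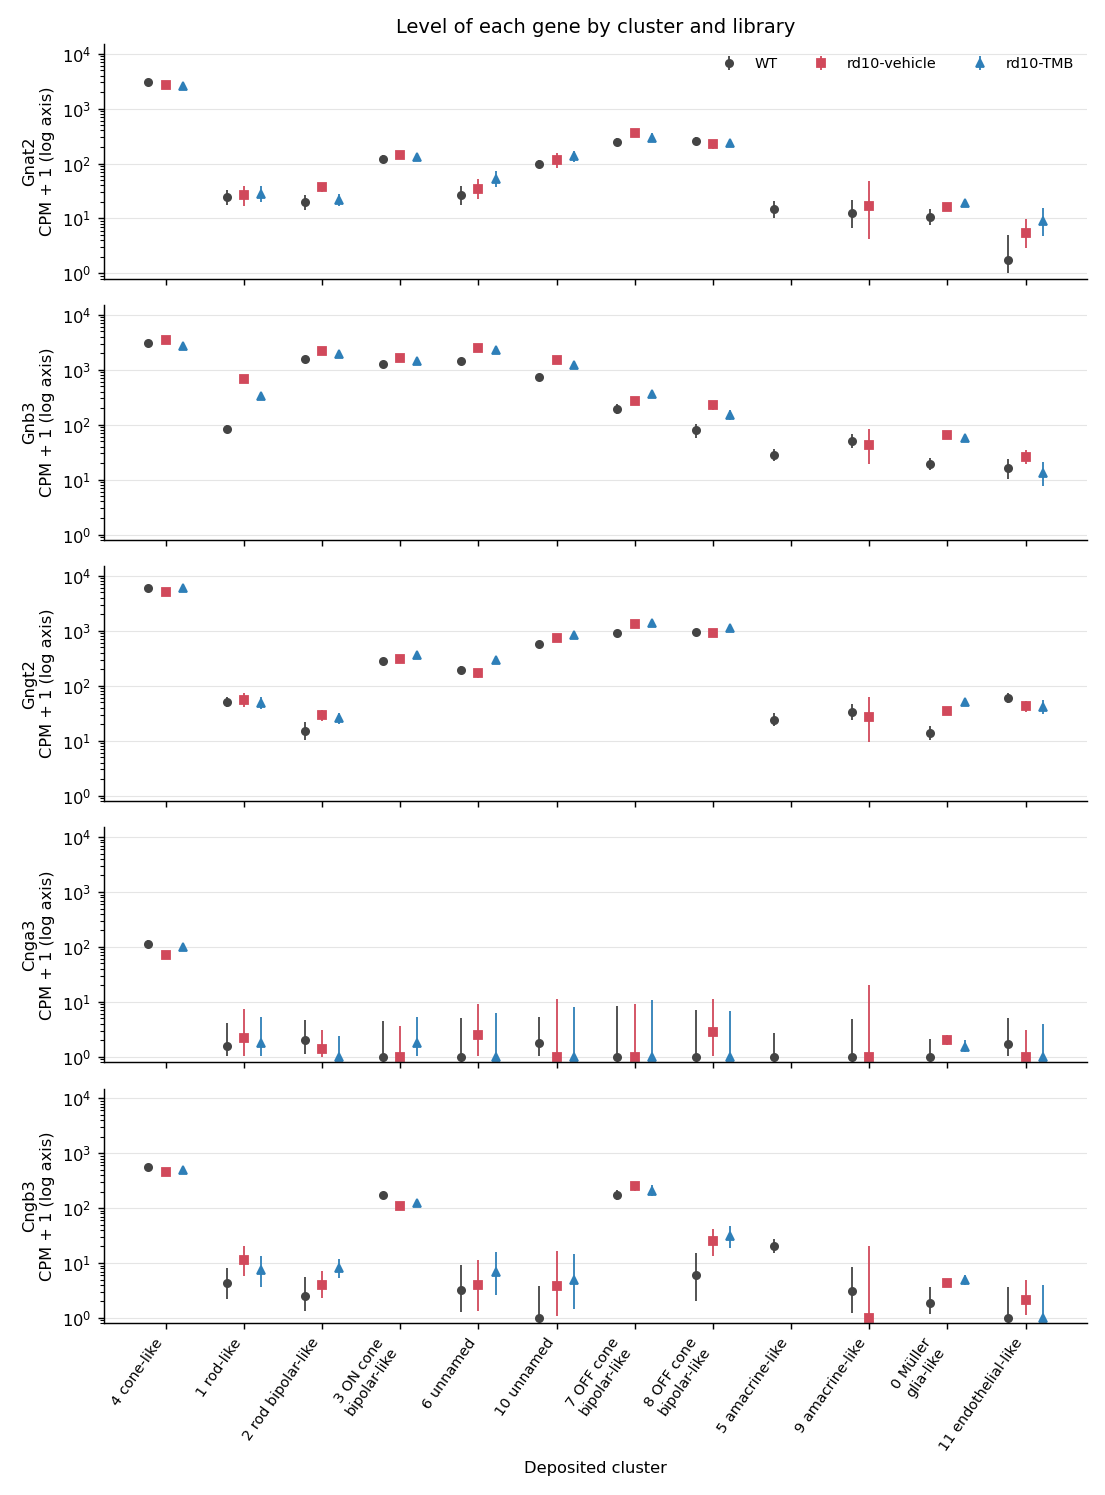
Level of each gene (CPM + 1, log axis) in the clusters with at least 50 cells, by library; points are sums over cells and bars 95% Poisson intervals. All 5 genes are highest in Cluster 4, Gnb3 is also high in Clusters 2, 3, 6 and 10, and Gnb3 in Cluster 1 goes from 82.3 CPM in WT to 683 CPM in rd10-vehicle.

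Within cones the gamma subunit transcript was the most abundant of the 5 and the alpha channel subunit the least. Gnat2 had 3094 CPM in WT (95% Poisson interval 3004 to 3187) and 2647 CPM in rd10-vehicle (2585 to 2711), with 2611 CPM in rd10-TMB (2544 to 2680). Its level was lower in both rd10 libraries than in WT, and the rd10 intervals overlapped each other. Its log2 ratio was -0.23 for rd10-vehicle over WT (-0.28 to -0.17) and -0.24 for rd10-TMB over WT (-0.30 to -0.19). Gnat2 was found in 100% of WT cones, 98.2% of rd10-vehicle cones and 98.3% of rd10-TMB cones, with medians of 16, 12 and 13 UMIs per cell. Cones with at most 10% mitochondrial UMIs, a sign of cell quality, were 195 of 278 in WT, 257 of 542 in rd10-vehicle and 190 of 412 in rd10-TMB. In these cells alone the Gnat2 ratios were nearer to 0, at -0.09 and -0.15, whereas Cnga3 and Cngb3 stayed past the limit of a call for rd10-vehicle over WT.

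Gnb3, the beta subunit gene, had 3062 CPM in WT (2972 to 3154) and 3478 CPM in rd10-vehicle (3406 to 3551), with 2666 CPM in rd10-TMB (2598 to 2736). It was the only one of the 5 that was higher in rd10-vehicle than in WT, and the rd10-TMB library was the lowest of the 3. The log2 ratio was 0.18 for rd10-vehicle over WT (0.13 to 0.24), -0.20 for rd10-TMB over WT (-0.26 to -0.14) and -0.38 for rd10-TMB over rd10-vehicle (-0.43 to -0.34). With the 126 WT cones that carried Xist but lacked Y-linked UMIs as the reference, the first of these fell to 0.04, so the higher level in rd10-vehicle depended on which WT cells were used. The rd10 pools were female and WT held both sexes, and the part of sex in this was not tested.

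Gngt2, the gamma subunit gene, had 6155 CPM in WT (6027 to 6285) and 5205 CPM in rd10-vehicle (5117 to 5294), with 5992 CPM in rd10-TMB (5890 to 6096). The rd10-vehicle library was below both others, and the intervals of WT and rd10-TMB overlapped. The log2 ratio was -0.24 for rd10-vehicle over WT (-0.28 to -0.20), -0.04 for rd10-TMB over WT (-0.08 to 0.00) and 0.20 for rd10-TMB over rd10-vehicle (0.17 to 0.24). The median cone held 32, 26 and 33 Gngt2 UMIs, against 15.5, 16 and 14 Gnb3 UMIs.

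Cnga3, the channel subunit that can form a channel by itself, rested on 159 UMIs in WT and 183 in rd10-vehicle, with 211 in rd10-TMB. Its level was 112 CPM in WT (94.9 to 130) and 71.3 CPM in rd10-vehicle (61.4 to 82.5), with 97.1 CPM in rd10-TMB (84.4 to 111). The rd10-vehicle interval lay below both others, and the WT and rd10-TMB intervals overlapped. The log2 ratio was -0.65 for rd10-vehicle over WT (-0.96 to -0.33), -0.20 for rd10-TMB over WT (-0.50 to 0.11) and 0.44 for rd10-TMB over rd10-vehicle (0.15 to 0.74). With each cell thinned to 1000 UMIs, leaving out 5, 11 and 15 shallower cones, Cnga3 was found in 15.0%, 6.03% and 8.56% of cones (exact binomial intervals 10.998 to 19.8, 4.16 to 8.40 and 6.00 to 11.8). The thinned ratios to WT, with too few UMIs of Cnga3 for a call, were -1.249 and -0.83 in the order rd10-vehicle, rd10-TMB, and in cells with at most 10% mitochondrial UMIs they were -0.56 and -0.02. The standing of rd10-TMB against WT thus depended on the processing. Unthinned shares were 44.2%, 28.4% and 37.9% at median depths of 5333, 4857 and 5548.5 UMIs per cell. In rod-like cells 0.0847% to 0.1799% of cells had a Cnga3 UMI, at median depths of 1406 to 1536 UMIs.

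Cngb3, the channel subunit that modifies Cnga3, had 570 CPM in WT (531 to 610) and 451 CPM in rd10-vehicle (426 to 478), with 486 CPM in rd10-TMB (458 to 517). It was lower in both rd10 libraries than in WT, and the rd10 intervals overlapped. The log2 ratio was -0.34 for rd10-vehicle over WT (-0.47 to -0.20), -0.23 for rd10-TMB over WT (-0.36 to -0.09) and 0.11 for rd10-TMB over rd10-vehicle (-0.01 to 0.23). After thinning, however, the ratio of rd10-vehicle to WT was -0.02, and Cngb3 was found in 37.4%, 37.9% and 38.5% of cones. The call of Cngb3 was also lost with median-of-ratios size factors, with totals without mitochondrial and ribosomal protein genes and with the Xist-carrying WT cells, and thus depended on the processing.

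Against the background of all genes, the 5 genes were called as follows. For rd10-vehicle over WT, 0 of 5 were higher and 2 of 5, Cnga3 and Cngb3, were lower, while of 5382 genes 9.20% were higher and 13.8% lower. For rd10-TMB over WT, 0 of 5 were called, and of 5025 genes 9.73% were higher and 13.7% lower. For rd10-TMB over rd10-vehicle, Cnga3 was higher and Gnb3 lower, and of 5898 genes 6.88% were higher and 7.36% lower. The median log2 ratio of the 5 genes was -0.24, -0.20 and 0.11 in these comparisons, and that of all genes -0.04, -0.02 and 0.02. The comparisons share libraries and are not independent of each other.

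**Figure D2:**
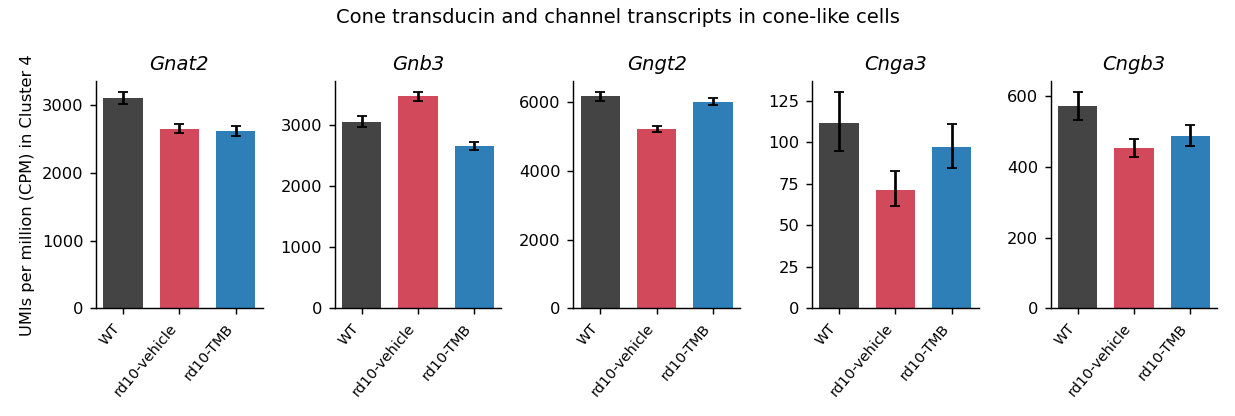
Level of each gene in Cluster 4 (CPM, bars from 0) by library, with 95% Poisson intervals. Gnat2 and Cngb3 are lower in both rd10 libraries, Gngt2 and Cnga3 are lowest in rd10-vehicle, and Gnb3 is highest in rd10-vehicle at 3478 CPM.

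The balance between subunit transcripts in cones followed from these levels. There were 1.99 Gngt2 UMIs per Gnat2 UMI in WT (1.92 to 2.06) and 1.97 in rd10-vehicle (1.91 to 2.02), with 2.30 in rd10-TMB (2.22 to 2.37). Gnb3 and Gnat2 were even in WT at 0.99 (0.95 to 1.03) and in rd10-TMB at 1.02 (0.98 to 1.06), but rd10-vehicle had 1.31 Gnb3 UMIs per Gnat2 UMI (1.27 to 1.36). Cngb3 exceeded Cnga3 by 5.11-fold in WT (4.30 to 6.09) and 6.33-fold in rd10-vehicle (5.41 to 7.44), and by 5.01-fold in rd10-TMB (4.32 to 5.84). The 3 intervals overlapped. These are ratios of captured tags and not of proteins.

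Most single cones carried transcripts of all 3 G protein subunits. With each cell thinned to 1000 UMIs, all 3 subunit transcripts were found in 86.1% of WT cones (81.4 to 89.96), 84.7% of rd10-vehicle cones (81.4 to 87.7) and 79.1% of rd10-TMB cones (74.8 to 83.0). A cone without any of the 3 was found once in WT, and in 0 of 531 rd10-vehicle and 0 of 397 rd10-TMB cones. Both channel subunits were found together in 6.59%, 2.82% and 4.03%, and neither in 54.2%, 58.9% and 56.9%. At full depth 41.0%, 24.0% and 33.3% of cones had all 5 transcripts. Channel transcripts were too few for these shares to say which cones lacked them.

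The other genes of the cone cascade were read from a fixed list of 26, of which 25 were in the matrix. Of these, 21 had at least 100 UMIs over each pair of libraries in cones. For rd10-vehicle over WT, 0 were higher and 9 lower (among them Opn1sw, Arr3, Grk1, Rgs9bp, Gnb5, Guca1b, Gnb1 and Pdc), against 13.8% of all genes lower, with a median log2 ratio of -0.26. For rd10-TMB over WT, 0 were higher and 6 lower (Opn1sw, Grk1, Rgs9bp, Guca1b, Gucy2e and Gnb1), against 13.7% of all genes, with a median of -0.27. For rd10-TMB over rd10-vehicle, Arr3 was higher, or 1 of 21 against 6.88% of all genes, none was lower and the median was 0.01.

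Upstream of transducin, Opn1sw, the short-wavelength opsin, had 8253, 6540 and 6455 CPM, and Opn1mw, the middle-wavelength opsin, 5200, 5017 and 4769 CPM. The S opsin was past the limit in both comparisons with WT, and the M opsin in neither. Arr3, cone arrestin, which quenches the opsins, had 4757 CPM in WT and 3714 in rd10-vehicle, with 5007 in rd10-TMB, a log2 ratio of 0.43 for rd10-TMB over rd10-vehicle (0.39 to 0.47). Like Cnga3 and Gngt2, it was lowest in rd10-vehicle.

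Downstream, Pde6c, the catalytic subunit of the cone phosphodiesterase, had 1354, 1133 and 1127 CPM, a log2 ratio of -0.26 to WT in both rd10 libraries. Pde6h, its inhibitory subunit, had 13965, 14479 and 14889 CPM. The catalytic subunit was thus lower and the inhibitory subunit slightly higher than in WT, neither past the limit of a call. Rgs9bp, the anchor of the complex that shuts transducin off, had 279, 190 and 177 CPM, with log2 ratios to WT of -0.55 and -0.66. Rgs9, the enzyme it anchors, had 772, 674 and 749 CPM.

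The listed genes with the lowest ratios are strong rod genes. Guca1b, a guanylate cyclase activator, had 132 CPM in WT cones and 35.1 in rd10-vehicle, with 32.2 in rd10-TMB, log2 ratios of -1.90 and -2.02. Gnb1, the rod beta subunit, had 109, 50.3 and 60.3 CPM, log2 ratios of -1.11 and -0.85. The number of rod-like cells was also lower than the 1180 of WT in both rd10 libraries, at 556 and 746 in the rd10-vehicle and rd10-TMB libraries. Gnat1 had 106, 68.6 and 83.3 CPM, with log2 ratios to WT of -0.63 and -0.35. For rd10-TMB over rd10-vehicle, the intervals of Gnb1 (-0.10 to 0.62), Gnat1 (-0.03 to 0.59) and Guca1b (-0.60 to 0.34) all spanned 0. Whether these genes had the order of the rod counts over the 3 libraries thus cannot be read. The part of free rod transcripts in these values was not tested.

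**Figure D3:**
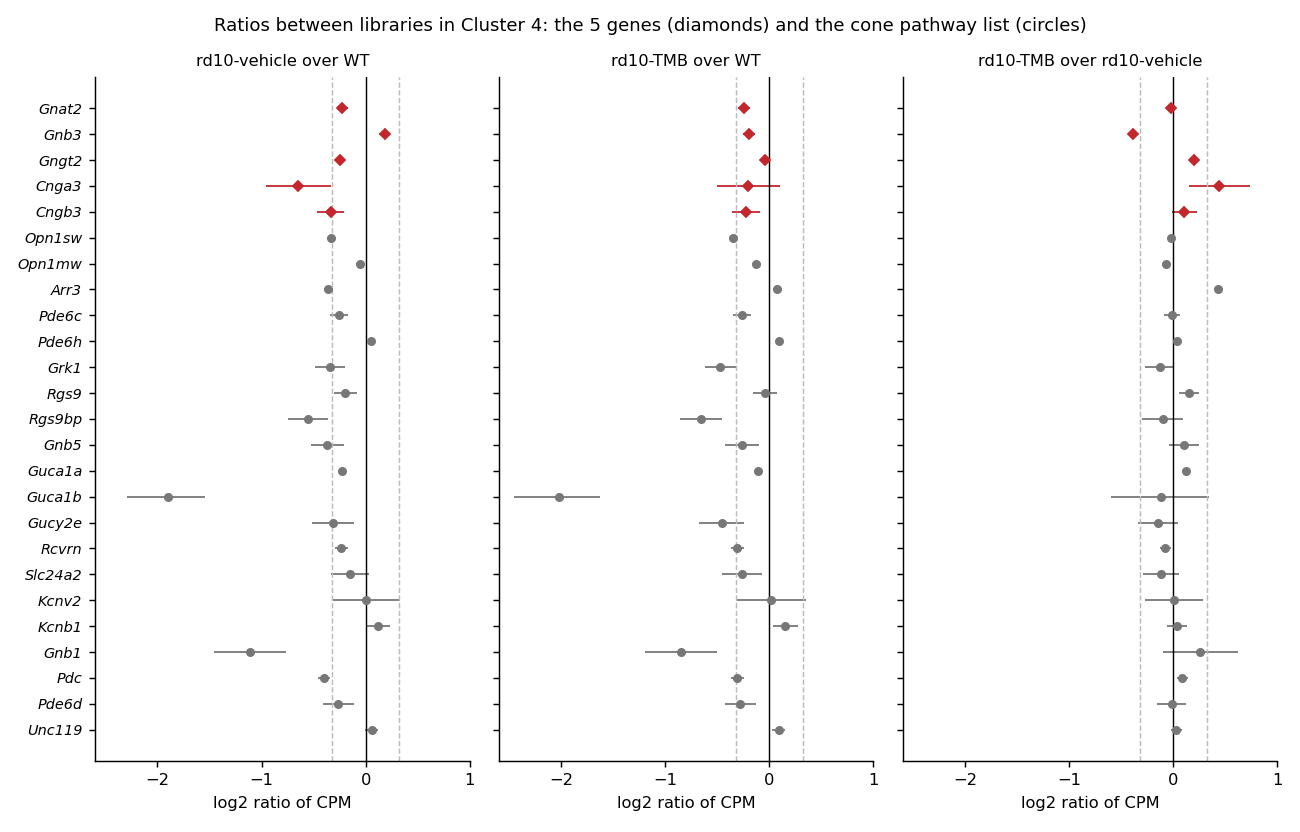
Log2 ratio of CPM in Cluster 4 for the 5 genes (diamonds) and 20 of the 21 pathway genes with enough UMIs (circles), by comparison, with exact 95% counting intervals; dashed lines mark the limits of a call. Guca1b at -1.90 and -2.02 is the lowest point against WT, and Arr3 and Cnga3 lie highest for rd10-TMB over rd10-vehicle.

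The rod form of the gamma subunit was abundant in cones and the other rod forms were not. In Cluster 4, Gngt1 had 3237 CPM in WT and 3507 in rd10-vehicle, with 3903 in rd10-TMB, and was found in 98.9%, 97.4% and 97.6% of cones. Gnat1 was at 106 CPM or below, Cnga1 had 26.7, 23.0 and 27.2 CPM, and Cngb1 20.4, 19.1 and 20.7 CPM. Rod-like cells had 1.67 Gngt1 UMIs per Gnat1 UMI in WT (1.62 to 1.72) and 1.77 in rd10-vehicle (1.71 to 1.85), with 2.34 in rd10-TMB (2.26 to 2.41), whereas cones had 30.6 (26.0 to 36.2), 51.1 (44.0 to 59.7) and 46.9 (40.4 to 54.6). The ratio of Gngt1 to Gnat1 was thus higher in cones than in rod-like cells, and the source of the Gngt1 tags in cones was not tested. Cones held 1.90, 1.48 and 1.54 Gngt2 UMIs per Gngt1 UMI. Gngt1 was not particular to cones and rods. It had 2581, 2229 and 2722 CPM in Cluster 3 and 1900, 1757 and 2055 CPM in Cluster 8, but 117, 63.5 and 149 CPM in Cluster 10.

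The largest difference for any of the 5 genes lay in rods. Gnb3 in Cluster 1, the rod-like cells, had 148 UMIs and 82.3 CPM in WT (69.6 to 96.7). It had 588 UMIs and 683 CPM in rd10-vehicle (629 to 741). The rd10-TMB rods had 411 UMIs and 325 CPM (295 to 358). The intervals of the 3 libraries did not overlap, with rd10-TMB between the others. The level was 8.26-fold higher in rd10-vehicle than in WT, a log2 ratio of 3.05 (2.79 to 3.32), and 3.93-fold higher in rd10-TMB, a log2 ratio of 1.98 (1.71 to 2.26). Between the rd10 libraries it was 2.10-fold lower with TMB, a log2 ratio of -1.07 (-1.26 to -0.89).

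Gnb3 ranked 8 from the highest among 4279 genes for rd10-vehicle over WT and 11 among 4717 for rd10-TMB over WT, and 7 from the lowest among 3473 for rd10-TMB over rd10-vehicle. Of the 5 genes only Gnb3 and Gngt2 had enough UMIs in rods, and 1 of these 2, Gnb3, was called in each comparison. In Cluster 1, 12.5% of all genes were higher and 20.4% lower for rd10-vehicle over WT, 12.8% and 17.4% for rd10-TMB over WT, and 9.07% and 8.90% for rd10-TMB over rd10-vehicle. The share of genes higher by 2-fold or more in rd10-vehicle than in WT was 1.40%.

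More rods carried the transcript, and more carried several copies. Gnb3 was found in 115 of 1180 WT rods (9.75%), 286 of 556 rd10-vehicle rods (51.4%) and 231 of 746 rd10-TMB rods (31.0%). Thinned to 1000 UMIs the shares were 5.45%, 40.6% and 22.4%, and 1.69%, 27.2% and 12.5% of rods had 2 or more UMIs at full depth. The 10 rods with the most Gnb3 held 22.3%, 12.1% and 15.6% of its UMIs, so the higher levels were not those of a few cells. In endothelial-like cells, which should lack Gnb3, thinned shares were 1.48%, 3.85% and 0% (unthinned 13.1%, 19.2% and 10.0% at median depths of 7110, 9718 and 9116.5 UMIs).

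The rod partner genes showed no difference of this size. Gnb1, the beta subunit rods normally use, had 3795 CPM in WT rods and 3046 in rd10-vehicle, with 3288 in rd10-TMB, log2 ratios to WT of -0.32 and -0.21. WT rods held 46.1 Gnb1 UMIs per Gnb3 UMI (39.2 to 54.6), rd10-vehicle rods 4.46 (4.08 to 4.88) and rd10-TMB rods 10.1 (9.13 to 11.2). Gnat1 had 4375, 4521 and 4328 CPM and Gngt1 7308, 8022 and 10114 CPM. The channel genes Cnga1, with 2178, 1916 and 2033 CPM, and Cngb1, with 1039, 807 and 948 CPM, were lower in both rd10 libraries.

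The other cone genes stayed low in rods. Gnat2 had 23.4, 25.6 and 26.9 CPM, Gngt2 50.6, 54.6 and 48.3 CPM, and Cngb3 3.34, 10.5 and 6.33 CPM on 6, 9 and 8 UMIs. Rods held 2.17, 2.14 and 1.79 Gngt2 UMIs per Gnat2 UMI, and all 3 intervals spanned the ratio of cones in the same library. For Gnb3 the ratio in rods was 3.52 Gnb3 UMIs per Gnat2 UMI in WT (2.49 to 5.09) and 26.7 in rd10-vehicle (17.5 to 43.0), with 12.1 in rd10-TMB (8.51 to 17.7), each above that of cones in the same library. The Gnb3 tags in rods were thus not in the proportion that cones have.

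Markers of the other cells that use Gnb3 were measured beside it. In rods the 10 cone markers summed to 361, 414 and 354 CPM, with 10, 10 and 9 of them seen and Rxrg at 0 in rd10-TMB. The 12 ON bipolar markers, all seen in each library, summed to 278, 225 and 279 CPM. Neither sum differed between libraries as Gnb3 did, and the part of cone and ON bipolar transcripts in the Gnb3 values was not tested. Trpm1, the channel gene of ON bipolar cells, gave 3.70 Gnb3 UMIs per Trpm1 UMI in rods of WT (2.59 to 5.39) and 34.6 in rd10-vehicle (21.4 to 59.8), with 10.3 in rd10-TMB (7.42 to 14.6), against 0.42, 0.60 and 0.55 in Cluster 2 and 1.99, 1.79 and 1.61 in Cluster 3. The Müller glia markers, in contrast, summed to 241, 725 and 604 CPM in rods, and their part in the result was not tested. Müller glia-like cells themselves had 18.4 to 64.5 CPM of Gnb3.

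Rods with Gnb3 were compared with rods without it. In WT the ON bipolar markers summed to 507 CPM in rods with Gnb3 and 252 CPM in rods without. In rd10-vehicle these were 237 and 210 CPM, and in rd10-TMB 239 and 300 CPM. Bipolar markers were thus higher beside Gnb3 in WT but hardly in rd10-vehicle. Median depths of rods with and without Gnb3 were 1432 and 1423, 1492 and 1328, and 1784 and 1465 UMIs.

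Neighbours on chromosome 6 and the other beta subunit genes were read in the same rods. Of the genes within 50 kb of Gnb3, Tpi1, a glycolytic enzyme gene, had a log2 ratio of 0.15 for rd10-vehicle over WT (-0.02 to 0.31) on 878 and 465 UMIs. Gpr162 had 45, 67 and 60 UMIs and a ratio of 1.63 (1.07 to 2.22). Spsb2 had 8, 31 and 25 UMIs, too few for a call, with a ratio of 2.89 (1.86 to 4.35). P3h3, whose gene lies 814 bases from Gnb3 on the same strand, had 11, 18 and 23 UMIs, also too few, with a ratio of 1.73 (0.613 to 3.002). Usp5 had 40, 17 and 17 UMIs and a ratio of -0.12 (-1.08 to 0.68). The ratios of the neighbours thus ranged from about that of Gnb3 to slightly below 0. Gnb2 had 24, 55 and 50 UMIs, too few for a call for rd10-vehicle over WT, with a ratio of 2.23 (1.54 to 3.02), and Gnb5 had 793, 600 and 661 CPM. Gpr162 was thus also higher in rd10-vehicle rods, at 77.8 CPM against 683 CPM of Gnb3.

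**Figure D4:**
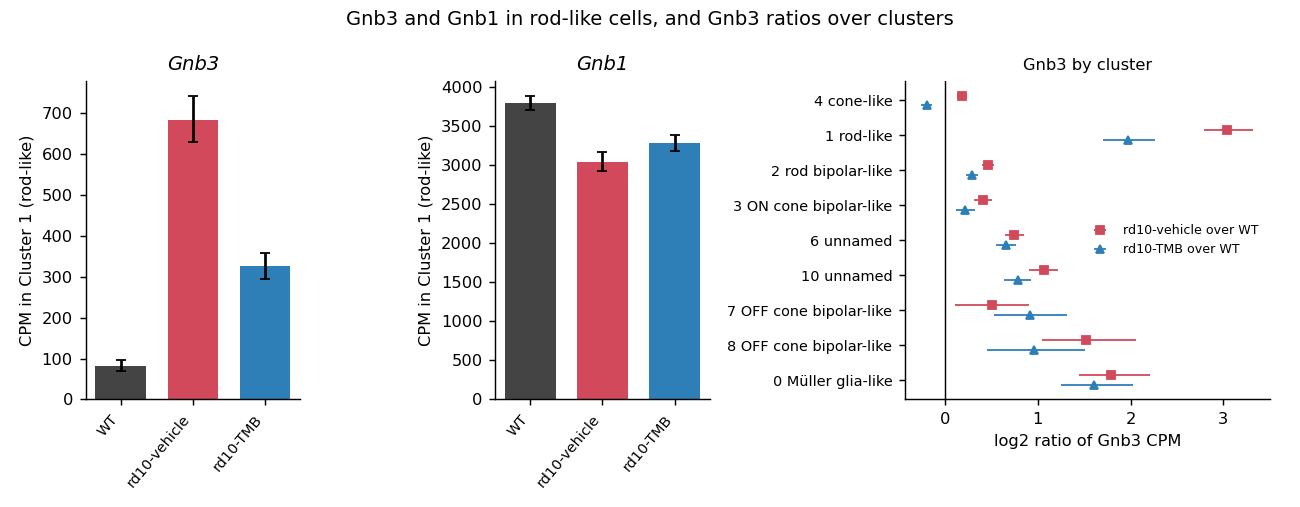
Left and middle: CPM of Gnb3 and Gnb1 in Cluster 1 by library (bars from 0, 95% Poisson intervals, different axes). Right: log2 ratio of Gnb3 CPM to WT by cluster with exact 95% counting intervals; Cluster 1 has the highest ratios, 3.05 and 1.98, and Cluster 4 the lowest, 0.18 and -0.20.

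Gnb3 was higher in rd10-vehicle than in WT in all 9 clusters with enough UMIs, with log2 ratios from 0.18 to 3.05, and each interval was above 0. For rd10-TMB over WT it was higher in 8 of 9, with cones the exception. The clusters of a library share its handling and depth, so they are not 9 separate observations. In Cluster 2, rod bipolar-like cells, Gnb3 had 1588, 2182 and 1946 CPM, log2 ratios to WT of 0.46 and 0.29. In Cluster 3, ON cone bipolar-like cells, it had 1249, 1658 and 1448 CPM, ratios of 0.41 and 0.21.

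Ratios to WT above those of Clusters 2 and 3 were found in several other clusters. Müller glia-like Cluster 0, where levels were low, had 1.79 and 1.60. OFF cone bipolar-like Cluster 7 had 0.50 and 0.91, and Cluster 8 had 1.52 and 0.96. The unnamed Clusters 6 and 10 were also above Clusters 2 and 3. Cluster 6 had 1454, 2437 and 2288 CPM, ratios of 0.75 and 0.65. Cluster 10 had 723, 1510 and 1244 CPM, ratios of 1.06 and 0.78. Other genes of the ON bipolar cascade were higher there as well. Both clusters had raised amacrine markers too, 5 of 8 in Cluster 6 and 4 of 8 in Cluster 10. Cluster 6 held 177, 180 and 152 cells, and Cluster 10 held 239, 107 and 123. The part of a changed mix of cells in these ratios was not tested. For rd10-vehicle over WT, 6 of 9 listed genes with enough UMIs were higher in Cluster 6, against 15.0% of all genes, and 9 of 9 in Cluster 10, against 23.0%. Trpm1 had ratios of 0.82 and 1.13, and Grm6 0.66 and 1.23, in these clusters. For rd10-TMB over WT, 8 of 9 were higher in Cluster 6 (16.4% of all genes) and 5 of 8 in Cluster 10 (17.1%). In OFF cone bipolar-like cells, where levels were low, Cluster 7 had 191, 271 and 360 CPM and Cluster 8 77.5, 225 and 152 CPM. Cluster 7 was the only one of the 9 in which rd10-TMB was above rd10-vehicle.

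Among all 5 genes in Cluster 2, the 3 with enough UMIs, Gnat2, Gnb3 and Gngt2, were higher in rd10-vehicle than in WT, where 17.2% of 5963 genes were called in either direction. The Gnat2 and Gngt2 values there were 18.8 against 35.9 CPM and 14.3 against 28.3 CPM, far below the levels in cones. For rd10-TMB over WT, 0 of 1 was called and 18.5% of all genes, and for rd10-TMB over rd10-vehicle 1 of 3, Gnat2, which was lower, and 11.6% of all genes. In Cluster 3, Gnb3 was higher and Cngb3 lower of 4 with enough UMIs for rd10-vehicle over WT (28.7% of all genes), and Gngt2 higher and Cngb3 lower for rd10-TMB over WT (28.9%). For rd10-TMB over rd10-vehicle, 0 of 4 were called and 13.7% of all genes.

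The partners of Gnb3 in the ON bipolar cascade showed no such shift in rod bipolar-like cells, unlike in Clusters 6 and 10. Grm6, the glutamate receptor, had log2 ratios of 0.08 for rd10-vehicle over WT and -0.02 for rd10-TMB over WT in Cluster 2. Gnao1, the alpha subunit, had -0.10 and -0.11, Gng13, the gamma subunit, -0.16 and 0.13, and Trpm1 -0.08 and -0.12. None of the 10 listed genes with enough UMIs was called in Cluster 2 in these comparisons. Of all genes, 17.2% and 18.5% were called there in either direction. The ratio of Gnb3 was higher than that of each of the 10 in both comparisons. In Cluster 3, Trpm1 had 0.56 and 0.52 and Nyx, a synaptic protein gene, 0.70 and 0.29. In that cluster 3 of 10 listed genes were higher for rd10-vehicle over WT and none was lower. Of all genes, 28.7% were called there in either direction, so the list was near that share. Of the 10, 2 had ratios above that of Gnb3, with a list median of 0.19. Trpm1 and Nyx are named here for their high values.

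Gngt2 had a second site of expression in OFF cone bipolar-like cells. Cluster 7 had 902, 1323 and 1409 CPM, Cluster 8 962, 927 and 1125 CPM. The unnamed Cluster 10 had 585, 743 and 845 CPM. Gnat2 in Cluster 7 had 246, 354 and 294 CPM. The ratio of Gngt2 to Gnat2 UMIs was 3.66, 3.74 and 4.80 in Cluster 7 and 6.01, 6.405 and 6.33 in Cluster 10, all with intervals above the 1.97 to 2.30 of cones. Gngt2 per Gnat2 in these clusters was thus above that of cones, and the source of these tags was not tested. Abi3, which overlaps Gngt2 on the other strand, had 0 UMIs in Clusters 3, 7, 8 and 10, but 57, 75 and 53 UMIs in cones.

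In the microglia-like cells of rd10-vehicle, Gngt2 had 236 CPM beside 52 Abi3 UMIs. Those of rd10-TMB had 207 CPM beside 31 Abi3 UMIs, and the 6 WT cells of this kind had 0 UMIs of either gene. Cngb3 had its own second site in Cluster 3, at 170, 108 and 124 CPM, log2 ratios to WT of -0.64 and -0.45, and in Cluster 7, at 171, 249 and 208 CPM. Cluster 8, the other OFF cone bipolar-like cluster, had 4.94, 23.8 and 30.1 CPM. Cngb3 was thus unevenly spread between bipolar clusters, and in Cluster 3 it was lower in rd10 while Gnb3 was higher.

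Mouse cones express S opsin, M opsin or both, and the 5 genes were compared by opsin content. Cones with at least 5 opsin UMIs were grouped by the share from Opn1sw, at least 90% (mostly Opn1sw), at most 10% (mostly Opn1mw) or between (both). These are ranges of a share and not cell types, and 47, 76 and 60 cones lay near the limits. The groups held 39, 151 and 85 cones in WT, 86, 215 and 221 in rd10-vehicle and 62, 193 and 142 in rd10-TMB, in the order mostly Opn1sw, both, mostly Opn1mw.

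The lower Gnat2 level of the rd10 cones was most marked in the cones with mostly Opn1mw. There Gnat2 had 3239 CPM in WT (3073 to 3410) and 2213 CPM in rd10-vehicle (2127 to 2302), with 2194 CPM in rd10-TMB (2094 to 2297). In cones with mostly Opn1sw it had 3014 CPM (2757 to 3289), 3165 CPM (2985 to 3352) and 3173 CPM (2957 to 3401), with overlapping intervals. The log2 ratio of mostly Opn1sw over mostly Opn1mw was -0.10 in WT (-0.25 to 0.04) and 0.52 in rd10-vehicle (0.41 to 0.62), with 0.53 in rd10-TMB (0.41 to 0.65). The intervals of both rd10 ratios lay above that of WT. Differences between these ratios were not tested, as each comes from 1 library.

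Gngt2 and Gnb3 were higher in cones with mostly Opn1sw in each library. The ratio for Gngt2 was 0.40 in WT and 0.29 in rd10-vehicle, with 0.27 in rd10-TMB, and that for Gnb3 0.45, 0.20 and 0.44. With limits of 80% and 20% the WT values fell to 0.14 for Gngt2 and 0.24 for Gnb3. Gngt2 then had 5656 against 4988 CPM in rd10-vehicle and 6522 against 5751 CPM in rd10-TMB. These levels were closer together than with the first limits. Cngb3 had 0.02 (-0.32 to 0.34), 0.18 (-0.07 to 0.42) and 0.44 (0.16 to 0.70), and the Cnga3 intervals all spanned 0. With limits of 80% and 20% the rd10-TMB value of Cngb3 fell to 0.17, and its levels of 529 CPM (469 to 594) and 470 CPM (426 to 518) had overlapping intervals. The size of the difference by opsin thus depended on the limits for Gngt2, for Gnb3 in WT and for Cngb3 in rd10-TMB.

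**Figure D5:**
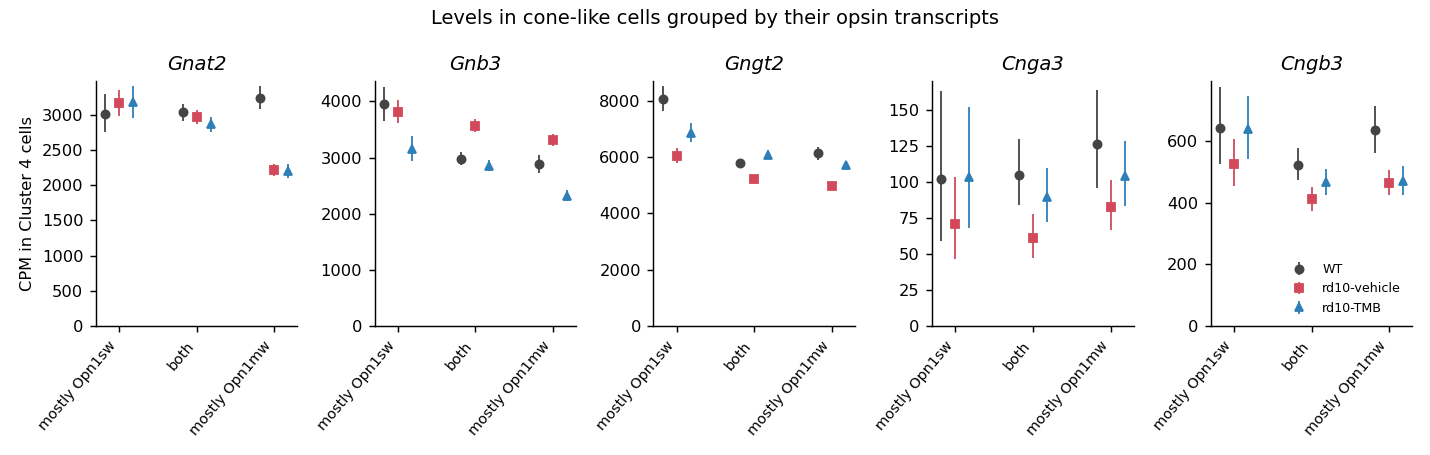
CPM of each gene in Cluster 4 cells grouped by the share of opsin UMIs from Opn1sw, by library, with 95% Poisson intervals. Gnat2 in cones with mostly Opn1mw is 3239 CPM in WT against 2213 and 2194 CPM in the rd10 libraries, while the 3 libraries overlap in cones with mostly Opn1sw.

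The genes most like each of the 5 were found by Pearson's r of log2(CPM + 10) over 35 sums of a cluster and library, among 13331 genes. These sums share libraries and the r values are descriptions. Gnat2 and Gngt2 were each other's closest gene, with r of 0.93. Both had Ppm1j, Pgc and Tafa3 among their 5 most alike, and Pgc and Ppm1j also led for Cngb3, with r of 0.91 and 0.89. Cnga3 was closest to 4930458D05Rik and Gm42697 (0.99 each), Agr2, Cckbr and Pde6c, r of 0.98 for the last. By Spearman's rho only 2 of the 5 most alike genes were kept for Gnat2, 2 for Gnb3, 3 for Gngt2, 0 for Cnga3 and 1 for Cngb3, and Gngt2 was not among those of Gnat2. Gnb3 stood apart, with Tmem9 (0.89), Mrpl57, Nrtn, Oaz1 and Cox16 as its closest genes and r of 0.42 to 0.59 with the other 4 genes.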

How the data were processed

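Per the labels, the authors aligned the reads with Cell Ranger 6.0.1 to mm10 and processed the cells with Seurat 3.2.2, and doublets were removed before deposit. Values in the deposited matrix are on a natural log scale, the logarithm of 1 plus a cell's UMIs of the gene scaled to a total of 10000, and the deposited cell table gives each cell's total UMI count, its library and its cluster. The authors' comparisons over cells are not used. Counts were recovered with the cell totals, and 100% of entries came out whole within 0.001 UMI. No cell was removed.

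UMIs were summed per cluster and library (Python 3.11.15, NumPy 2.4.6, SciPy 1.17.1, pandas 2.3.3, Matplotlib 3.10.9). Ratios carry a pseudocount of 1 UMI and an exact conditional interval, levels an exact Poisson interval and shares an exact Clopper-Pearson interval, all at 95%. Clusters were named from marker lists, with at least 3 markers at 2-fold and 20 CPM provided that the 10 genes with the highest fold held a marker of that list. Cell totals limit the precision, with median depths of 3509.5 to 4811.5 UMIs per cell. The ratio intervals were run on simulated sums with counting error only, which cannot show how libraries or animals vary.

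The genes, lists and tests were chosen with earlier results of these data known. Named were the 5 genes, their rod counterparts, the cone pathway and ON bipolar lists, and the 5 most alike genes of each, while the neighbours of Gnb3, the other beta subunit genes and Abi3 were chosen after values were seen. The rd10 mutation was not checked, as tag counts cannot show it. The cone pathway counts include 1 gene whose values are not reported here. Alternatives were other scalings, pseudocounts, cell filters, thinning, limits and likeness measures, and those for Gnb3 in Cluster 1 were added after seeing the data.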

Additional observations from a re-analysis of the deposited data

Results flagged for a closer look

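Several ratios had opposite signs in different clusters, with intervals apart from 0, and the differences between clusters were not tested. For rd10-TMB over rd10-vehicle, the log2 ratio of Gnb3 was -1.07 in Cluster 1, -0.38 in Cluster 4 and -0.56 in Cluster 8, but 0.41 in Cluster 7, where it rested on 135 and 121 UMIs.

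For Gngt2 and rd10-vehicle over WT, the log2 ratio was 1.34 in Cluster 0 (Müller glia-like), 0.96 in Cluster 2, 0.55 in Cluster 7 and 0.35 in Cluster 10, against -0.51 in Cluster 11 (endothelial-like) and the value below 0 in cones. For rd10-TMB over WT it was 1.90 in Cluster 0, 0.35 in Cluster 3, 0.57 in Cluster 6, 0.64 in Cluster 7 and 0.53 in Cluster 10, against -0.54 in Cluster 11. The Cluster 0 values came from low levels, 12.95 CPM in WT and 33.4 in rd10-vehicle, with 49.5 in rd10-TMB.

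For Cngb3 and rd10-vehicle over WT, the log2 ratio was -0.64 in Cluster 3 and -0.34 in Cluster 4, but 0.54 in Cluster 7.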

How the results depend on the processing

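Under 13 settings of scaling and cell choice the median log2 ratio of the 5 genes in Cluster 4 ranged from -0.29 to -0.20 for rd10-vehicle over WT, from -0.21 to -0.14 for rd10-TMB over WT and from -0.038 to 0.16 for rd10-TMB over rd10-vehicle. The first reached -0.29 with only the WT cells carrying Xist but lacking Y-linked UMIs, and the last -0.038 with cells thinned to 1000 UMIs. The count of 2 genes past the limit for rd10-vehicle over WT became 1 at 1.5-fold, with median-of-ratios size factors, with totals without mitochondrial and ribosomal protein genes and with those WT cells, and 0 after thinning, when 4 of the 5 had enough UMIs. The count of 0 for rd10-TMB over WT became 1 with the mean over cells and 1 with those WT cells. The count of 2 for rd10-TMB over rd10-vehicle became 0 at 1.5-fold and 0 after thinning. The Cnga3 ratio ranged from -1.249 to -0.56 for rd10-vehicle over WT and from -0.83 to -0.02 for rd10-TMB over WT, where it was past the limit in 2 of 13 settings. Cnga3 was past the limit for rd10-vehicle over WT in 13 of 13 settings, though after thinning it had too few UMIs for a call, and Cngb3 in 9 of 13. All 5 genes were highest in Cluster 4 in each setting tried. The share of a gene's UMIs held by Cluster 4, however, depended on the processing for all 5 genes.

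For Gnb3 in Cluster 1 the log2 ratio ranged from 2.78 to 3.33 for rd10-vehicle over WT, from 1.71 to 2.27 for rd10-TMB over WT and from -1.11 to -0.91 for rd10-TMB over rd10-vehicle, in settings chosen after seeing the data. Cells with at least 1000 detected genes gave 3.33 and 2.27, and the Xist-carrying WT cells 2.78 and 1.71. These settings included rods without a UMI of the cone markers and rods without a UMI of the ON bipolar markers. The causes of these moves were not tested. No ratio past the limit of a call changed its sign, whereas the median and the Cngb3 ratio for rd10-TMB over rd10-vehicle, neither of them past it, were below 0 after thinning. With opsin limits of 80% and 20% the ratio by opsin of Cnga3 in rd10-TMB and that of Cngb3 in WT, both near 0, became -0.26 and -0.15. No paired analysis was possible because each group was 1 library.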
